A study of Homo sapiens with 4 samples.

Results

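The mitochondrial chromosome encodes 13 proteins, and 6 of them are described here: cytochrome b of respiratory complex III (MT-CYB), the 3 core subunits of complex IV, cytochrome c oxidase (MT-CO1, MT-CO2, MT-CO3), and 2 membrane subunits of complex V, ATP synthase (MT-ATP6, MT-ATP8). They were chosen by place, as the rows of the deposited footprint table that lie exactly on these genes on the mitochondrial chromosome, 6 of 78724 rows in all. The other 7 protein genes of that chromosome encode subunits of complex I and serve as the comparison.

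Footprints, the stretches of RNA that ribosomes shield from nuclease, were sequenced from A375, an established human melanoma line. The series title places the work among cancers deficient in ASS1, the enzyme that lets cells make arginine from citrulline. Cells had been kept in DMEM with fetal bovine serum. Each group held 2 libraries: cells given control medium for 48 h, and cells given arginine-free medium for 48 h. The arginine-free medium was built on amino-acid-free RPMI, with glucose, pyruvate and every amino acid other than L-arginine put back. The labels do not give the base of the control medium, so a difference of base medium and the lack of arginine cannot be told apart. They also do not say whether the libraries came from separate cultures, so the p-values reflect spread among these libraries alone, and that spread may be technical. The question the comparison addresses is how the ribosome occupancy of mRNAs differs without arginine.

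Mitochondria translate these mRNAs on their own ribosomes, with tRNAs encoded in the same genome, while arginine has to be supplied from the cytosol. MT-CO1 is the subunit around which complex IV is assembled, and it holds the site where oxygen is reduced. MT-CO2 receives electrons from cytochrome c, and MT-CO3 completes the core. MT-ATP6 forms the proton path of ATP synthase, and MT-ATP8 is a small subunit read from the same mRNA in an overlapping reading frame. MT-CYB is the mitochondrially encoded subunit of complex III and carries its quinone sites.

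All 6 rows lie on the heavy-strand side, in single-exon genes with almost no untranslated sequence. In the coordinates of the deposited table they are MT-CO1 (ENSG00000198804.2, chrM, 5904 to 7445), MT-CO2 (ENSG00000198712.1, 7586 to 8269), MT-ATP8 (ENSG00000228253.1, 8366 to 8572), MT-ATP6 (ENSG00000198899.2, 8527 to 9207), MT-CO3 (ENSG00000198938.2, 9207 to 9990) and MT-CYB (ENSG00000198727.2, 14747 to 15887). MT-ATP8 and MT-ATP6 share 46 bases, 22.2% of the MT-ATP8 row, and MT-ATP6 and MT-CO3 share 1 base. The file header shows no option to count a read that touches more than 1 gene, so footprints in the shared bases are in neither row. Reads were also counted without strand, so footprints of these genes and any antisense RNA cannot be told apart.

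Total counts were 105004 and 217989 in control replicates 1 and 2, and 234766 and 192006 in arginine-free replicates 1 and 2. The 13 mitochondrial protein genes held 1708, 2779, 2655 and 1130 of these reads in the same order. Both replicates numbered 2 stood apart on the mitochondrial chromosome. In control replicate 2 the mitochondrial tRNA rows took 21.2% of the reads, nearly all of them on valine tRNA, against 9.43% to 10.8% in the other libraries. In arginine-free replicate 2 both mitochondrial rRNA rows together took 14.6% of the reads, against 3.65% to 6.29% in the other libraries. Per 100 mitochondrial rRNA reads, the 6 genes had 19.5 and 20.8 reads in control medium, 10.4 in arginine-free replicate 1 and 2.34 in arginine-free replicate 2. With the rRNA and tRNA rows of the mitochondrial chromosome left out of the fit, MT-CO1 and MT-ATP6 still passed. Leaving them out moved the median log2 fold change of the remaining rows by -0.0048 only, so that fit is a weak check. The part that the make-up of the libraries has in the calls was not tested. Of 7 melanocytic marker genes matched by place, 4 were listed at 0, among them MITF, PMEL and SOX10. Of the 62 reads on the marker rows most were on TYRP1, with 16 and 25 in the control libraries and 1 and 0 without arginine, and MLANA held 6 and 10 against 0 and 2. Their part in the results below was not tested. Of 8 marker genes of other cell types, 6 were listed at 0, and the 8 held 11 reads in all. The reads were placed on an older genome build than the rows, so a nuclear row at 0 need not stand for a gene without footprints.

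Footprints on MT-CO1 and MT-ATP6 passed the test as lower in arginine-free medium, and the other 4 genes did not pass. The MT-ATP6 call was close to the threshold (edgeR adjusted p = 0.0434) and was lost with DESeq2 and in several other settings. MT-ATP8 and MT-CYB lay just outside the threshold (edgeR adjusted p = 0.0524 and 0.0556), so the split between these genes is not firm. The fitted levels without arginine were 47.6% of control for MT-CO1 and 52.2% for MT-ATP6. MT-CO2, the neighbour of MT-CO1 on the chromosome and its partner in complex IV, was at 85.4% and its groups overlapped. In all, 2 of 6 passed (edgeR, adjusted p under 0.05), both lower, where 33% of the 2526 tested rows passed, 16.9% in the lower direction and 16% in the higher. The count of 2 in 6 is therefore near the background. The median log2 fold change was -0.63 over the 5 genes without MT-ATP8 and -0.03 over all tested rows. MT-ATP8 is left out of that median because it cleared the filter on low counts through the control libraries alone, and with it the median was -0.79. In bulk samples, fewer mitochondria or mRNAs per cell and fewer ribosomes per mRNA cannot be told apart.

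**Figure D1:**
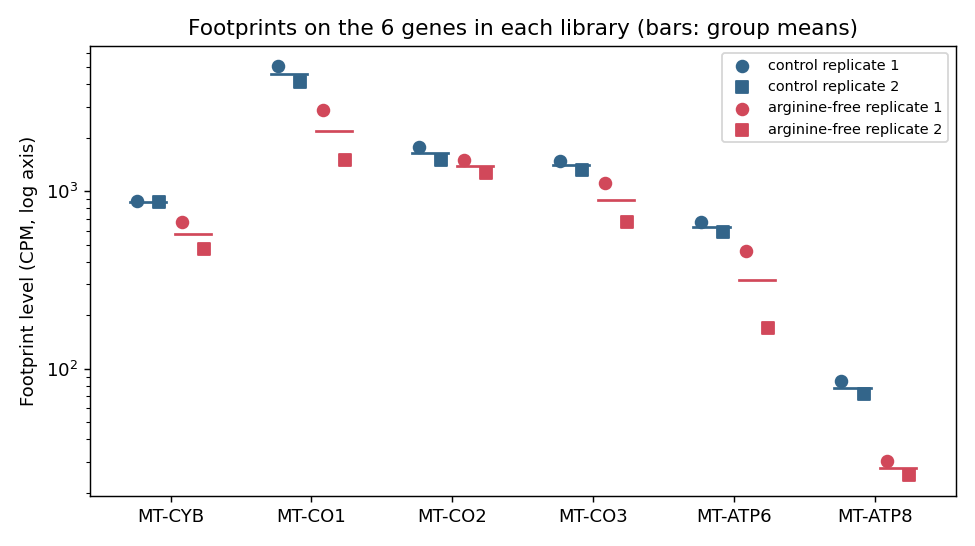
Footprint level (CPM, depth-scaled counts, log axis) of the 6 genes in each of the 4 libraries, with short bars for the group means. Both arginine-free libraries lie below both control libraries for each gene but MT-CO2, where arginine-free replicate 1 (1507 CPM) lies between the control values (1492 and 1781 CPM). Of all tested rows, 34.2% had both arginine-free libraries below both controls. MT-ATP8 entered the test through its high control libraries alone.

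In complex IV, MT-CO1 had 536 and 806 reads in the control libraries, against 660 and 238 in the arginine-free libraries. Levels are given as CPM, counts scaled by depth over the tested rows and a TMM factor, and were 5051 and 4134 against 2858 and 1495 CPM. Both control libraries lay well above both arginine-free ones. The means were 4593 ± 649 and 2177 ± 964 CPM (SD, n = 2 each). The fit gave 2.1-fold less, a log2 fold change of -1.07 with an SE of 0.29 (edgeR, adjusted p = 0.0114).

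MT-CO2 had 189 and 291 reads in the control libraries and 348 and 203 without arginine, or 1781 and 1492 against 1507 and 1275 CPM. Arginine-free replicate 1 lay inside the control range. The log2 fold change was -0.23, with a 95% interval from -0.70 to 0.24 (SE 0.22, edgeR adjusted p = 0.458). The value fitted for MT-CO1 lies outside this interval, but the MT-CO1 interval, from -1.69 to -0.45, overlaps it. The fit did not test the difference between these genes.

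MT-CO3 had 157 and 257 reads against 257 and 107, or 1480 and 1318 against 1113 and 672 CPM. Its groups did not overlap, and the control libraries were close together while the arginine-free ones were not. The means of 1399 ± 114 and 893 ± 312 CPM (SD, n = 2 each) gave a log2 fold change of -0.63 with an SE of 0.25 (edgeR, adjusted p = 0.0635), which did not pass.

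In complex V, MT-ATP6 had 71 and 115 reads in the control libraries and 107 and 27 without arginine, or 669 and 590 against 463 and 170 CPM. The low value of arginine-free replicate 2 set most of the difference. The means were 629 ± 56.1 and 316 ± 208 CPM (SD, n = 2 each), with a log2 fold change of -0.94 and an SE of 0.33 (edgeR, adjusted p = 0.0434). Without arginine-free replicate 2 the change was -0.37 and did not pass (adjusted p = 0.237 in edgeR). Without arginine-free replicate 1 it was -1.82. The MT-ATP6 call also ended without control replicate 1 and with DESeq2 (adjusted p = 0.107 and 0.269). DESeq2 called 1 of 6, MT-CO1, where 5.51% of all its rows were called lower.

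MT-ATP8 was the thinnest row, with 9 and 14 reads in the control libraries and 7 and 4 without arginine. These were 84.8 and 71.8 against 30.3 and 25.1 CPM, and the groups did not overlap. The filter asks for 48.8 CPM of the whole library in at least 2 libraries, which both control libraries and neither arginine-free library met. A row that enters only through the group where it is high had to differ, so its log2 fold change of -1.43 (SE 0.53, 95% interval from -2.56 to -0.29, edgeR adjusted p = 0.0524) is a description and is not ranked with the other 5. With 34 reads in all, this row cannot separate a change like that of MT-ATP6 from a larger one.

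In complex III, MT-CYB had 93 and 170 reads against 155 and 75, or 876 and 872 against 671 and 471 CPM. The control libraries were nearly equal and both lay above the arginine-free ones. The means were 874 ± 3.26 and 571 ± 142 CPM (SD, n = 2 each), with a log2 fold change of -0.60 and an SE of 0.23 (edgeR, adjusted p = 0.0556), which did not pass.

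For 4 of the 5 genes other than MT-ATP8, both arginine-free libraries were below both control libraries with counts scaled to the library, an arrangement that 34.2% of all tested rows showed. The arginine-free replicates did not move alike. Set against the control mean, replicate 1 stood at 0.622 of it for MT-CO1, 0.921 for MT-CO2 and 0.736 for MT-ATP6, and replicate 2 at 0.326, 0.779 and 0.269. MT-ATP6 thus differed most between the arginine-free replicates (0.366, replicate 2 over replicate 1), and MT-CO2 and MT-ATP8 least (0.846 and 0.829). Leaving out 1 library leaves its group with 1, and the spread then comes from the other group, and the lone library is assumed to vary like it. Leaving out arginine-free replicate 1, 4 of 6 passed (background 13.4% lower), namely MT-CO1, MT-ATP6, MT-CO3 and MT-CYB. Leaving out arginine-free replicate 2, 1 of 6 passed (background 12.3% lower), MT-CO1 at -0.62, and leaving out control replicate 1, 0 of 6 passed in edgeR (background 9.66% lower). In that last fit MT-CO1 stood at -0.92 (edgeR adjusted p = 0.0686), and 2 of 6 had an unadjusted p under 0.05. Without control replicate 2, 2 of 6 passed (background 8.6% lower).

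**Figure D2:**
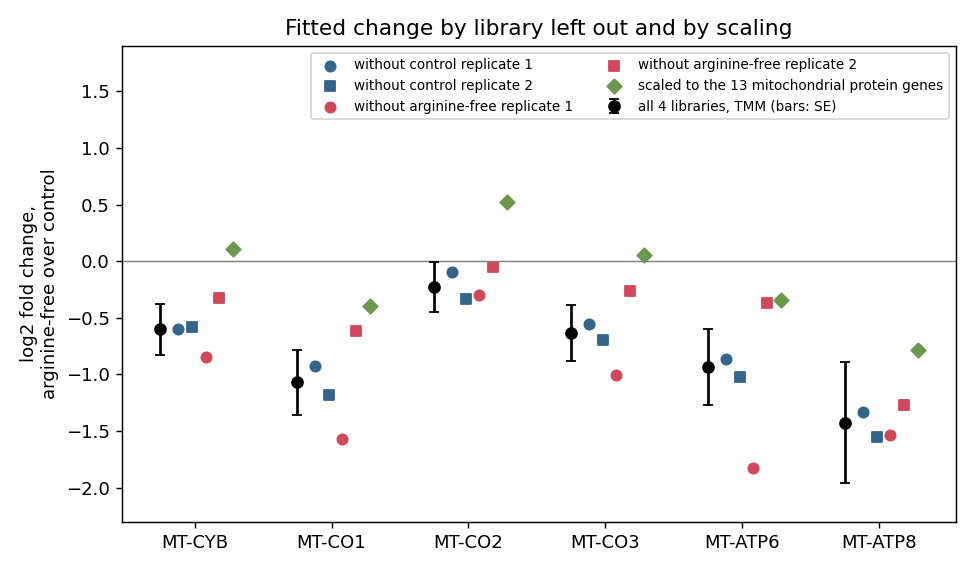
Fitted log2 fold change (arginine-free over control) of the 6 genes with all 4 libraries (black, bars are SE), with each library left out in turn, and with counts scaled to the reads of the 13 mitochondrial protein genes. Without arginine-free replicate 1 MT-ATP6 lies at -1.82, and without arginine-free replicate 2 at -0.37, while MT-CO2 lies between -0.33 and 0.53, above 0 with the scaling to the 13 genes alone.

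The make-up of the mitochondrial footprints also differed between the groups of libraries. MT-CO1 took 30.2% ± 1.68 of the reads on the 13 genes in control medium and 23% ± 2.68 in arginine-free medium, while MT-CO2 took 10.8% ± 0.42 and 15.5% ± 3.44 (SD, n = 2 each). The 2 groups did not overlap for either gene, nor for MT-CO3, MT-ATP6, MT-ATP8 and the complex I gene MT-ND1. MT-ND1 took 1.93% and 2.16% in the control libraries, and 3.39% and 2.92% without arginine. For MT-CYB and the rest of the complex I genes the groups overlapped. Over 2 libraries a group, the smallest p of an exact two-sided permutation test is 0.333. MT-CO1 and MT-CO2 both had that value (0.4 after Benjamini-Hochberg adjustment over the 6 genes), as did each other gene whose groups did not overlap.

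For MT-CO1 the shares were 31.4% (95% Wilson interval 29.2 to 33.6) and 29% (27.3 to 30.7) in control medium, and 24.9% (23.2 to 26.5) and 21.1% (18.8 to 23.5) in arginine-free medium. It was the 1 gene of the 13 whose arginine-free intervals both lay clear of both control intervals. For MT-CO2 they were 11.1% (9.66 to 12.6) and 10.5% (9.39 to 11.7), against 13.1% (11.9 to 14.4) and 18% (15.8 to 20.3). The interval of arginine-free replicate 1 overlapped that of control replicate 1, and arginine-free replicate 2 lay above both controls. These intervals take each read as an independent molecule and cover no other error. Amplified fragments without molecular identifiers are not independent molecules, so the intervals may be too narrow.

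**Figure D3:**
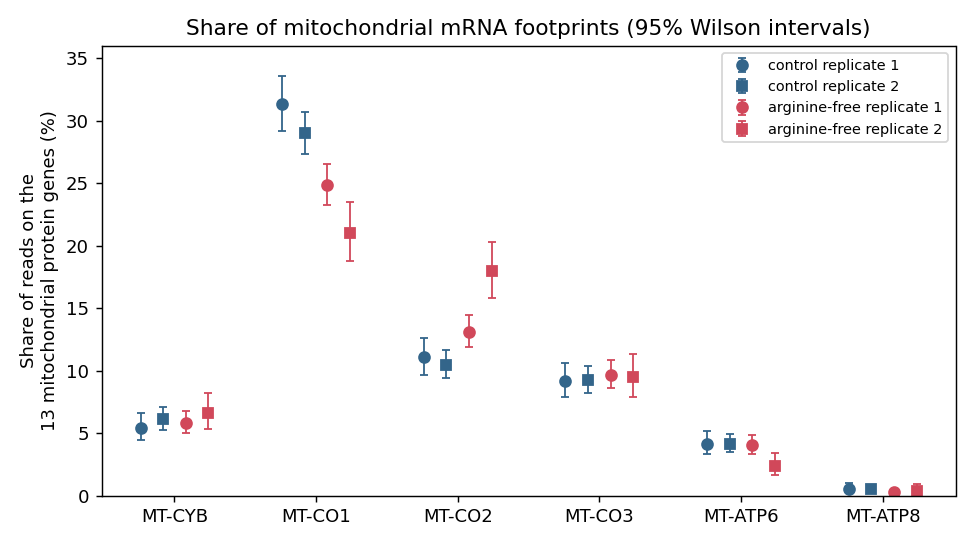
Share of each gene in the reads on the 13 mitochondrial protein genes (%), by library, with 95% Wilson intervals. MT-CO1 lies at 24.9% and 21.1% without arginine against 31.4% and 29%, MT-CO2 at 13.1% and 18% without arginine against 11.1% and 10.5%, and MT-CO3 between 9.19% and 9.68%.

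The share of MT-CO3 lay between 9.19% and 9.68% in the 4 libraries. MT-CYB took 5.44% and 6.12% in the control libraries and 5.84% and 6.64% without arginine, which overlapped. MT-ATP6 took 4.16% and 4.14% in control medium, 4.03% in arginine-free replicate 1 and 2.39% in arginine-free replicate 2, so the lower share was found in 1 library. MT-ATP8 took 0.527% and 0.504% against 0.264% and 0.354%, with intervals as wide as 0.138 to 0.907 in arginine-free replicate 2.

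Within complex IV, the ratio of the subunits restates the difference in shares. The ratios were chosen after the shares were seen and are no further support for it. For each 100 reads on MT-CO1 there were 35.3 and 36.1 reads on MT-CO2 in the control libraries, and 52.7 and 85.3 without arginine. The control libraries were nearly equal, and the ratio was 1.93-fold higher by the means without arginine. MT-CO3 had 29.3 and 31.9 reads for each 100 on MT-CO1 in control medium against 38.9 and 45 without arginine. MT-CYB had 17.4 and 21.1 against 23.5 and 31.5. For MT-ATP6 the groups overlapped, at 13.2 and 14.3 against 16.2 and 11.3. Of 8 ratios between the 6 genes 5 did not overlap, and each of these had the smallest exact permutation p, 0.333 (0.533 after Benjamini-Hochberg adjustment over the 8). They are not independent, since 5 of the 8 share MT-CO1.

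On the shared mRNA of complex V, MT-ATP8 had 12.7 and 12.2 reads for each 100 on MT-ATP6 in the control libraries, and 6.54 and 14.8 without arginine. The arginine-free values lay on both sides of the control ones. No change in the balance of both reading frames was detectable at this depth.

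When counts were scaled to the 13 genes in place of the library, the fitted log2 fold changes were -0.39 for MT-CO1, -0.35 for MT-ATP6, -0.78 for MT-ATP8, 0.53 for MT-CO2, 0.10 for MT-CYB and 0.055 for MT-CO3. None of the 6 passed in that edgeR fit (adjusted p from 0.385 to 0.947; 0 of 6 at an unadjusted p under 0.05), where 29.2% of all rows passed. The sign of MT-CO2, MT-CYB and MT-CO3 turned, but their SEs of 0.56, 0.52 and 0.54 were larger than these changes, so no direction can be read. The 6 genes are part of the 13, so changes set against the 13 have to lie on both sides of 0. This scaling moves the median of all tested rows by 0.72 on the log2 scale, and scaling to the 7 complex I genes, under which 0 of 6 passed in edgeR (0 at an unadjusted p under 0.05) and 26.6% of all rows did, moves it by 0.63. With other library scalings the count lower was 1 of 6 for RLE factors (16% of all rows lower), 1 of 6 for upper-quartile factors (16.5%), 1 of 6 against nuclear rows (16.6%) and 3 of 6 with total counts alone (17.7%). It was 3 of the 5 rows left under a minimum of 50 counts (25.2%) and 2 of 6 with the replicate block (14.7%). The minimum of 50 counts moved the median of all the rows it kept by -0.24 on the log2 scale.

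The 6 genes and the 7 of complex I were close in their change. The 6 together made up 61.8% and 59.5% of the reads on the 13 genes in the control libraries, and 57.8% and 57.9% without arginine. The groups did not overlap, with a difference of -2.8 percentage points and the smallest possible exact permutation p of 0.333. The complex I genes had log2 fold changes from -0.88 to -0.02 with a median of -0.55, and 1 of 7 passed, MT-ND2, where 16.9% of all rows passed lower. Both arginine-free libraries were below both controls for 4 of these 7, beside 34.2% of all rows. Of the 7, MT-ND3 met the count filter in 1 arginine-free library only. Among the other rows of the mitochondrial chromosome, those nearest to the mean pattern of the 6 genes were MT-ND4L, MT-ND5 and MT-ND6. Their root mean square distances were 0.11, 0.12 and 0.16 in row-centred log2 CPM over the 4 libraries. MT-CO3 itself was 0.078 from that mean, and MT-CO2 was the farthest of the 6, at 0.34.

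Densities, in CPM per kilobase of row that no other gene shares, set levels side by side between genes. They were not corrected for reads that also match nuclear copies of these genes. In control medium MT-CO1 was the densest of the 13 genes, at 2978 ± 421 CPM per kilobase, followed by MT-CO2 at 2393 ± 299 and MT-CO3 at 1787 ± 146 (SD, n = 2 each). The MT-CO1 and MT-CO2 values did not overlap, at 3276 and 2681 against 2604 and 2182, although the lowest of the first and the highest of the second were close. MT-CO3 overlapped with MT-ND5, the next in order. MT-ATP6 stood at 993 ± 88.5, MT-CYB at 766 ± 2.86 and MT-ATP8 at 486 ± 57.2 (SD, n = 2 each).

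In arginine-free medium MT-CO2 was the densest, at 2203 and 1864 CPM per kilobase, above MT-CO1 at 1854 and 969. Their order was thus the reverse of that in control medium, in each library. MT-CO3 followed at 1421 and 858, which overlapped with MT-CO1. MT-CYB and MT-ATP6 had nearly the same mean, 501 ± 124 and 499 ± 328 (SD, n = 2 each), and could not be ordered. MT-ATP8 overlapped with MT-ND3, the next above it, and had the lowest mean of the 13, at 172 ± 22.8. A row this short loses further reads that straddle its shared end, so its density is a low estimate.

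**Figure D4:**
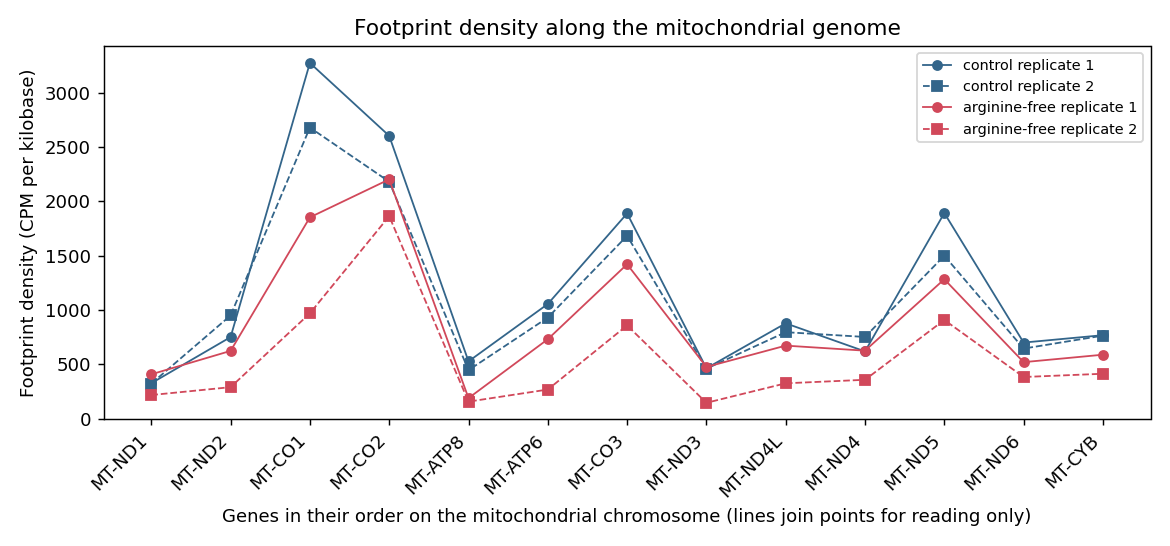
Footprint density (CPM per kilobase of unshared row length) of the 13 mitochondrial protein genes in their order on the chromosome, by library. Control libraries peak at MT-CO1 (3276 and 2681) and arginine-free libraries at MT-CO2 (2203 and 1864).

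The nuclear-encoded partners of these subunits could be followed at few places. Of 9 listed complex III subunits, 9 were matched by place, 6 were at 0 and 2 were tested, and both tested rows were lower. Over all tested rows 16.9% were lower and 16% higher, and with 2 tested rows a list these counts show nothing particular to it. These were at the places of UQCRC1 (35 and 55 reads against 41 and 16, log2 fold change -1.08, SE 0.33) and UQCRC2 (27 and 71 against 20 and 10, -2.04, SE 0.34), the core proteins of the complex. Of 11 complex IV subunits, 10 were matched, 8 were at 0 and 2 were tested, of which 1 was higher, at the place of COX6B1 (21 and 44 reads against 141 and 80, log2 fold change 1.38, SE 0.26). Of 17 complex V subunits, 15 were matched, 11 were at 0 and 2 were tested. The 1 that passed was ATP5F1D, a subunit of the rotor stalk, at 145 and 199 reads against 56 and 57, a log2 fold change of -2.0 (SE 0.25). Of the tested nuclear subunit rows ATP5F1D alone lies in a run of neighbouring broadly expressed genes that all held reads, and the others need not hold reads of the gene they name.

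Of 17 factors of mitochondrial transcription, translation and membrane insertion, 16 were matched, 12 were at 0 and 2 were tested. The row at the place of TUFM, the elongation factor that brings tRNAs to the mitochondrial ribosome, had 18 and 30 reads in the control libraries, and 167 and 123 without arginine (log2 fold change 2.22, SE 0.25). The row of POLRMT, the mitochondrial RNA polymerase, had a log2 fold change of -0.23 (SE 0.23) and did not pass (edgeR adjusted p = 0.481). Neither row lies in a run of neighbouring genes that all held reads, so neither need hold reads of the gene it names. The medians of the 2 tested rows of each list were -1.56 for complex III, 0.45 for complex IV, -1.30 for complex V and 0.99 for the factors, beside -0.03 over all tested rows.

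Short reads of mitochondrial genes can match copies of them in the nuclear genome. The table holds 185 rows named as copies of these 6 genes, of which 7 held any read, 282 in all. Those on chromosome 1 that match MT-CO1, MT-CO2, MT-ATP8, MT-ATP6 and MT-CO3 were listed at 0 in all 4 libraries. Because of the older build, rows of such copies need not hold the reads of the copies themselves.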

How the data were processed

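The authors deposited raw counts per gene, produced by featureCounts 2.0.1 from GENCODE 47 basic exons with no strand setting, per the file headers. Alignment involved GRCh37 or hg19, cutadapt, Bowtie2 2.5.2 and TopHat2, going by the submitters' processing notes, while the coordinates of the deposited table are those of GRCh38. The mitochondrial sequence used for alignment is not given in the sources used here, and some copies of hg19 carry one numbered slightly differently, which would move reads by a few bases at gene ends. The deposited row lengths and coordinates gave the bases of each row that no other row shares, over which densities were taken. No protein or mitochondrial nucleotide sequences were used here.

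Rows were named against RefSeq (GRCh38.p14) as mutual best matches, needing a shared fraction (overlap over union) of 0.5 if an end coincided and 0.75 if not. All 37 mitochondrial rows matched exactly. Runs of filled nuclear rows were those found in these data earlier.

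Counts were tested with edgeR 4.0.16 in R 4.3.3 (TMM factors, filterByExpr by group, quasi-likelihood test, Benjamini-Hochberg adjustment over 2526 rows). Each SE was worked back from the F statistic, and 95% intervals use its degrees of freedom. DESeq2 1.42.0 was an alternative. Log2 CPM patterns used a prior count of 2. Shares were tested by exact permutation over libraries (scipy 1.17.1). Tested on simulated counts for these 2526 rows, the edgeR step recovered 24% of 2-fold and 79% of 4-fold changes. Replicate counts differed beyond sampling noise (chi-square per degree of freedom 4.43 for control and 8.5 for arginine-free replicates).

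The genes named are the 6 members, the 3 mitochondrial rows most like them, and the list members past the threshold, at most 4 a list. COX6B1, TUFM and the UQCRC rows follow this rule. MT-ND1, MT-ND2, POLRMT and the marker genes were named after their values were seen. The members and lists were chosen with earlier results of these data known.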

Additional observations from a re-analysis of the deposited data

How the results depend on the processing

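In the 14 settings that keep the library or the nuclear rows as the scale, leaving out single libraries included, all 83 fitted changes of the 6 genes were below 0. These are refits of the same libraries, so the shared sign is no further support for a fall. They include MT-ATP8, which cleared the main filter through the control libraries alone. With counts scaled to the 13 mitochondrial protein genes, MT-CO2, MT-CYB and MT-CO3 turned to 0.53, 0.10 and 0.055, MT-CO1 and MT-ATP6 no longer passed (-0.39 and -0.35), and 0 genes passed. Scaled to the 7 complex I genes, MT-CO2 and MT-CYB turned to 0.425 and 0.0077, MT-CO1 and MT-ATP6 stood at -0.50 and -0.45, and again 0 passed in edgeR (0 at an unadjusted p under 0.05). Over all rows these scalings gave 622 higher and 115 lower, and 546 and 125, in place of 405 and 428. MT-ATP6 did not pass with RLE factors (-0.91), upper-quartile factors (-0.92), scaling to nuclear rows (-0.93) or DESeq2 (-0.88), which each left 1 gene, nor when a row needed 50 counts in both libraries of a group (-1.14). That filter, which drops MT-ATP8, brought in MT-CO3 (-0.85) and MT-CYB (-0.82), and total counts without factors brought in MT-CO3 (-0.69). The filter also moved the median of all the rows it kept by -0.24 on the log2 scale, and total counts moved it by -0.060. Without 1 library the log2 fold change ran from -1.57 to -0.62 for MT-CO1, -1.82 to -0.37 for MT-ATP6, -1.002 to -0.26 for MT-CO3 and -0.84 to -0.32 for MT-CYB, with 0 to 4 genes passing. Fewer rows or libraries entered under the stricter filter and with libraries left out. The cause of the differences between settings was not tested.

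The log2 ratio of the MT-CO3 shares, 0.054, became 0.020 per kilobase and -0.046 against the complex I genes. That of the 6 genes together, -0.068, became -0.026 and -0.17. Per kilobase and against the complex I genes, the shares of the other 5 genes moved by less than the spread between libraries. With 2 libraries a group, leaving 1 out shifts a mean by less than that spread by construction, so it is no check. Without arginine-free replicate 1 or 2, the log2 ratio of the MT-ATP6 shares, -0.37, became -0.80 or -0.041. That of the MT-CO2 shares, 0.53, became 0.74 or 0.28. With the replicate block, MT-CO1 stood at -1.14 and MT-ATP6 at -1.09 (edgeR adjusted p = 0.0173 and 0.0235), and 2 genes passed as before. Replicate numbers were not shown to pair the libraries (correlation of same-number deviations -0.053). Of all rows 833 passed, 309 with DESeq2, 284 under the stricter filter and 513 without control replicate 2. The scalings to nuclear rows and to the complex I genes, the fit without the valine tRNA and rRNA rows, and the ratios to MT-CO1 were chosen after seeing the data.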
